A study of Mus musculus with 6 samples.

Results

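Macrophages present antigen to T cells together with surface molecules that decide how the T cell responds, and 8 genes for such molecules are described here: Cd80, Cd86, Icosl, Cd274, Pdcd1lg2, Cd40, Cd83 and Cd200r1. They were chosen by name, as every non-control probe whose gene name in the array files is one of these 8. They are 8 of the 19575 features measured, and 10 of the 55681 probes on the array carry one of the names. All 10 probes were well above background on all 6 arrays. The genes were put together with the difference between ADP and control known from these same arrays, so their differences are given as a description, without a test.

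The cells were bone marrow-derived macrophages of C57BL/6 mice, grown in medium conditioned by L929 cells, which supplies the growth factor M-CSF. One group of 3 samples received 100 µM ADP for 6 h, and the other group of 3 is labelled only as control. Each sample has 1 one-colour array, and per the submitters the samples come from separate experiments with different donors. No allele, transgene or second agent is named for either group.

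T cells need a second signal besides the antigen. CD80 and CD86, the B7 ligands, give it through CD28 and withhold it through CTLA-4, while ICOSL acts on ICOS, and PD-L1 (Cd274) and PD-L2 (Pdcd1lg2) restrain T cells through PD-1. CD40 and CD200R1 are receptors of the myeloid cell itself: CD40 is switched on by the CD40 ligand of helper T cells, CD200R1 passes an inhibitory signal from CD200 on other cells, and CD83 is a surface marker of activated antigen-presenting cells that stabilises MHC class II and CD86 on the membrane.

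With 3 arrays a group, precision is limited by that number, and a permutation of 3 against 3 cannot go below p = 0.1. The 6 arrays came from 2 slides. Slide 1 carried controls 1 and 2 with ADP 1, and slide 2 carried control 3 with ADP 2 and ADP 3. The 75th percentile of the processed signal was 455 to 549, and 50.3% to 51.9% of the 59305 non-control spots of an array were well above background. A level below is the log2 processed signal minus that percentile, also in log2, and a difference is the mean level with ADP minus the mean level of the controls. Signals are printed as deposited, before that scaling, always in the order of controls 1 to 3 and then ADP 1 to 3. Probes differ in brightness, so the level of one gene is not set against that of another.

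Each value rests on a 60-base probe read from the array files. Of the 10 probes, 4 hold the hexamer AATAAA, the usual polyadenylation signal near the end of a transcript, against 10.1% of the 55681 probes. The stretches around the hexamer, in capitals, are shown because they hold the readout of the genes with the highest and the lowest difference. Transcript ends were not compared with the probes, so the hexamer does not place them.
Cd86: agagtggatttcAATAAAgttttcttgaat
Cd40: atttagttcttgAATAAAagacacactcaa
Icosl: acctaacaagggAATAAAtgtaagatgtgc
Cd200r1: atcaagttgtgcAATAAAgtatgatgaaaa

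Cd86 had the highest difference of the 8 genes. Its probe lies on chromosome 16 at 36603961 to 36604020, minus strand, on mouse build mm9, and starts at base 2473 of the transcript. The processed signals were 1783, 2152 and 1592 in the controls and 3607, 3384 and 4828 with ADP. Every array with ADP was brighter than every control, before and after scaling. The mean level was 1.91 ± 0.34 (SD, n = 3) in the controls and 2.92 ± 0.26 (SD, n = 3) with ADP, a difference of 1.01 ± 0.21 (SE), or 2.02-fold. Cd86 was the only one of the 8 genes with a difference of 2-fold or more. Within slide 1 the difference was 0.90, and within slide 2 it was 1.35. Control 3 was the dimmest array for Cd86, and without it the difference was 0.83. In bulk RNA, fewer cells of a type and less RNA per cell cannot be told apart, which holds for every gene here.

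Cd80, the other B7 ligand, gave different readings from its 2 probes. The probe starting at base 1457 of the transcript (chromosome 16, 38486772 to 38486831) is the brighter and stands for the gene. It gave signals of 2322, 2336 and 2326 in the controls and 1998, 2695 and 2869 with ADP. Those groups overlapped, with ADP 1 the lowest array and ADP 3 the highest in signal. The levels were 2.26 ± 0.15 (SD, n = 3) and 2.28 ± 0.13 (SD, n = 3), and the difference was 0.02 ± 0.13 (SE). It was -0.21 within slide 1 and 0.26 within slide 2, so the slides gave opposite signs.

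The dimmer Cd80 probe starts 585 bases upstream in the transcript, at base 872 (chromosome 16, 38479343 to 38479402). Its sequence is shown because it is the part of Cd80 where the groups separated.
Cd80, base 872: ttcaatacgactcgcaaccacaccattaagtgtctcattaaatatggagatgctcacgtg
Its signals were 119, 122 and 130.5 in the controls and 169.5, 191 and 194 with ADP. All 3 arrays with ADP were above all 3 controls. The levels were -1.98 ± 0.08 (SD, n = 3) and -1.48 ± 0.05 (SD, n = 3), a difference of 0.50 ± 0.10 (SE), or 1.42-fold. It was 0.51 within slide 1 and 0.57 within slide 2. The value fell to 0.34 with another background correction (normexp). The groups stayed apart with that correction, with quantile or median scaling, and without scaling. Leaving out each array in turn could not make them overlap. These alternatives were chosen after the values of the probe were seen. The mean of both probes gave 0.26 for the gene.

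Icosl, the ligand of ICOS, was read by a probe at base 2688 of its transcript (chromosome 10, 77542211 to 77542270). The signals were 754, 669.9 and 1169 in the controls and 567, 859.8 and 773 with ADP. The groups overlapped over all arrays, and within each slide every array with ADP was below every control. The levels were 0.78 ± 0.29 (SD, n = 3) and 0.49 ± 0.17 (SD, n = 3), and the difference was -0.29 ± 0.18 (SE). It was -0.31 within slide 1, -0.52 within slide 2 and -0.41 ± 0.11 (SE) with the slide as a block. Control 3 was the brightest array, and without it the difference was -0.14. Another probe for an Icosl transcript, which the files name by its transcript and not by the gene, did not reach the well-above-background flag on any array.

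**Figure D1:**
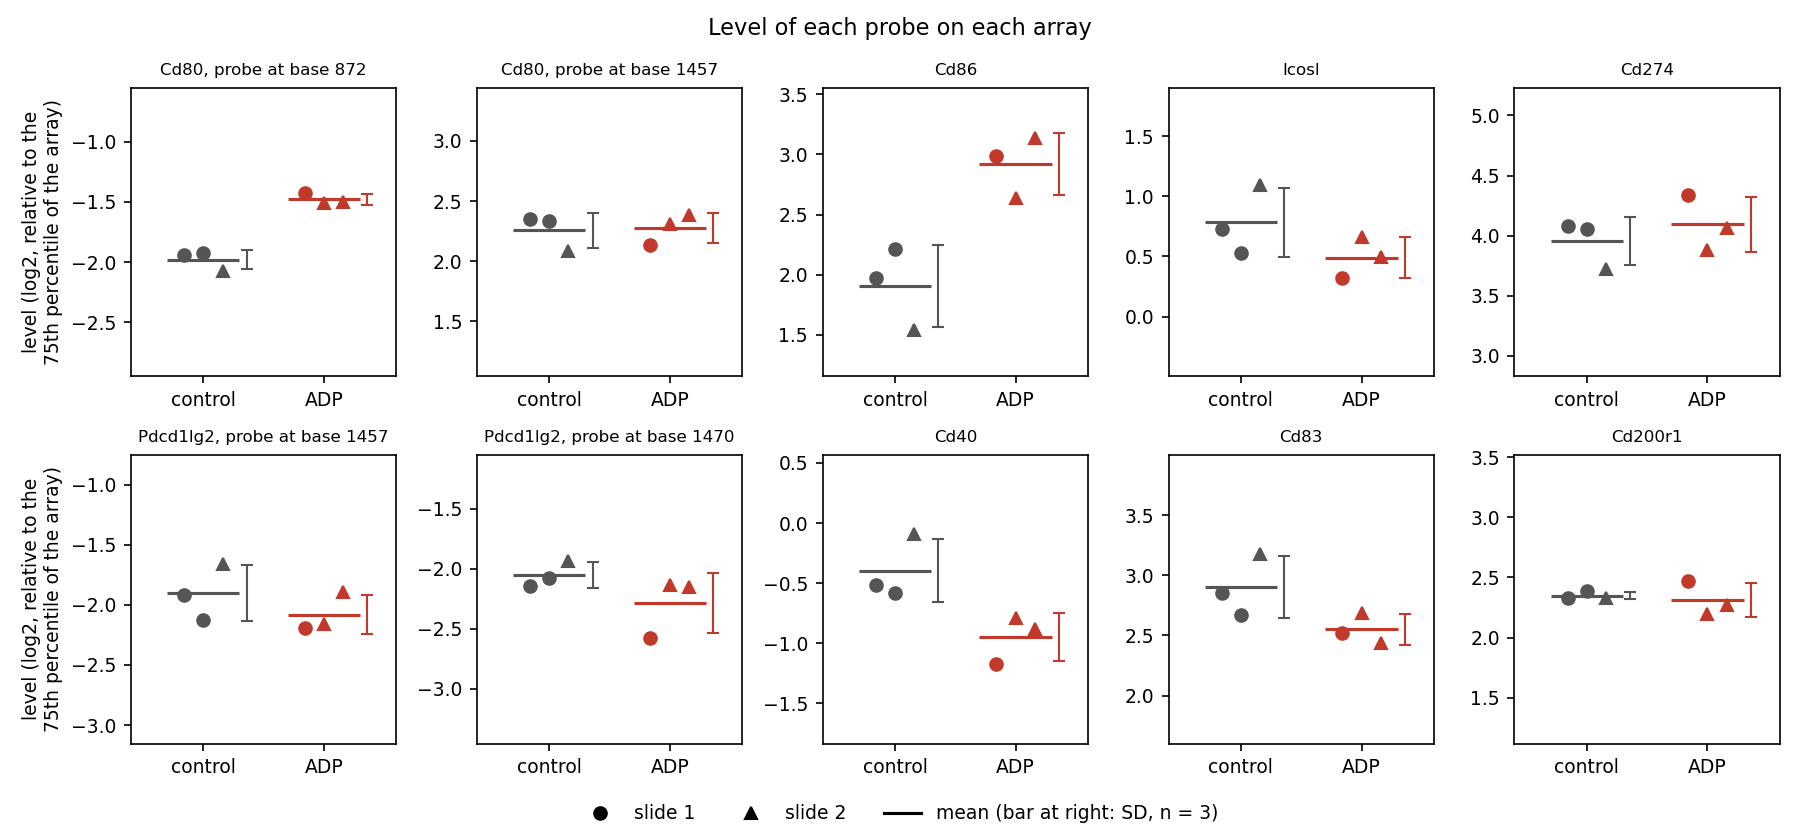
Level of each of the 10 probes on each array (log2, after subtraction of the array's 75th percentile), with controls in grey and ADP in red. Circles are slide 1, triangles are slide 2, the horizontal line is the mean of 3 arrays and the bar beside it is the SD. Every panel spans the same log2 range. For Cd86 the 3 ADP arrays lie above all controls, and for Cd40 they lie below all controls.

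The genes of the 2 PD-1 ligands lie next to each other on chromosome 19, with no other gene record between them in the RefSeq table. Cd274, which encodes PD-L1, was read at base 3416 of its transcript (29462363 to 29462422). Its signals were 7721, 7736 and 7265 in the controls and 9199, 8015 and 9203 with ADP. In unscaled signal the ADP arrays were all above the controls, and after scaling the groups overlapped. The levels were 3.96 ± 0.20 (SD, n = 3) and 4.09 ± 0.23 (SD, n = 3), and the difference was 0.14 ± 0.17 (SE). Within slides 1 and 2 it was 0.27 and 0.25. Control 3 stood 0.34 below the other controls, and the ADP arrays of slide 2 stood 0.36 below ADP 1, so the pooled difference moved with the slide. It was 0.02 without control 3 and 0.02 without ADP 1.

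Pdcd1lg2, which encodes PD-L2, has 2 probes that share 57 bases. One was designed on the transcript record AF142780 and the other on NM_021396, and over the shared bases they differ at 2 positions, T50C and A55G, counted from the 5′ end of the NM_021396 probe with its own base first. The stretch with both differences in capitals is shown because these probes read the same site and can serve as a check on each other.
AF142780: tggaagcatttaagcaacacgtCaagtGcc
NM_021396: tggaagcatttaagcaacacgtTaagtAcc

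The AF142780 probe (29545470 to 29545529) stands for the gene. Its signals were 121, 106 and 173 in the controls and 99.3, 122 and 148 with ADP. The NM_021396 probe (29545473 to 29545532) gave 103, 109.9 and 144 in the controls and 76.3, 124 and 124 with ADP. Both were dim, the groups overlapped for both, and ADP 1 was the lowest array for both. The differences were -0.18 ± 0.16 (SE) and -0.24 ± 0.15 (SE). On both slides both probes were lower with ADP, by -0.17 and -0.36 for the first and by -0.47 and -0.21 for the second. Without control 3 the differences were -0.06 and -0.18, and without ADP 1 they were -0.12 and -0.09. The readings of the 2 PD-1 ligands thus had opposite signs on each slide, and each pooled difference was smaller than the larger SD of its 2 groups.

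Cd40 had the lowest difference of the 8 genes. Its probe starts at base 1613 of the transcript (chromosome 2, 164897085 to 164897144). The signals were 319, 311 and 514 in the controls and 202, 316 and 298 with ADP. After scaling, every array with ADP was below every control, but in unscaled signal ADP 2 lay above control 2. The mean level was -0.40 ± 0.26 (SD, n = 3) in the controls and -0.95 ± 0.20 (SD, n = 3) with ADP, a difference of -0.55 ± 0.18 (SE), or 1.47-fold lower. It was -0.63 within slide 1 and -0.74 within slide 2. With the slide as a block it was -0.68 ± 0.08 (SE), or 1.61-fold lower. Control 3 was the brightest array by 0.45 over the other controls, and without it the difference was -0.40.

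Cd83 was read at base 1919 of its transcript (chromosome 13, 43898276 to 43898335). The signals were 3292, 2961 and 4959 in the controls and 2613, 3516 and 2981 with ADP. The groups overlapped through control 2 and ADP 2, which lie on different slides. The levels were 2.90 ± 0.25 (SD, n = 3) and 2.55 ± 0.13 (SD, n = 3), and the difference was -0.35 ± 0.16 (SE). It was -0.24 within slide 1, -0.61 within slide 2, and -0.21 without control 3.

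Cd200r1 differed least from array to array. Its probe starts at base 1470 of the transcript (chromosome 16, 44794670 to 44794729), and its signals were 2294, 2423 and 2763 in the controls and 2517, 2492 and 2649.8 with ADP. The groups overlapped. The levels were 2.35 ± 0.03 (SD, n = 3) and 2.31 ± 0.14 (SD, n = 3), and the difference of -0.04 ± 0.11 (SE) was 0.11 within slide 1 and -0.10 within slide 2. Its sign is therefore not settled by these arrays, as for the brighter Cd80 probe.

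**Figure D2:**
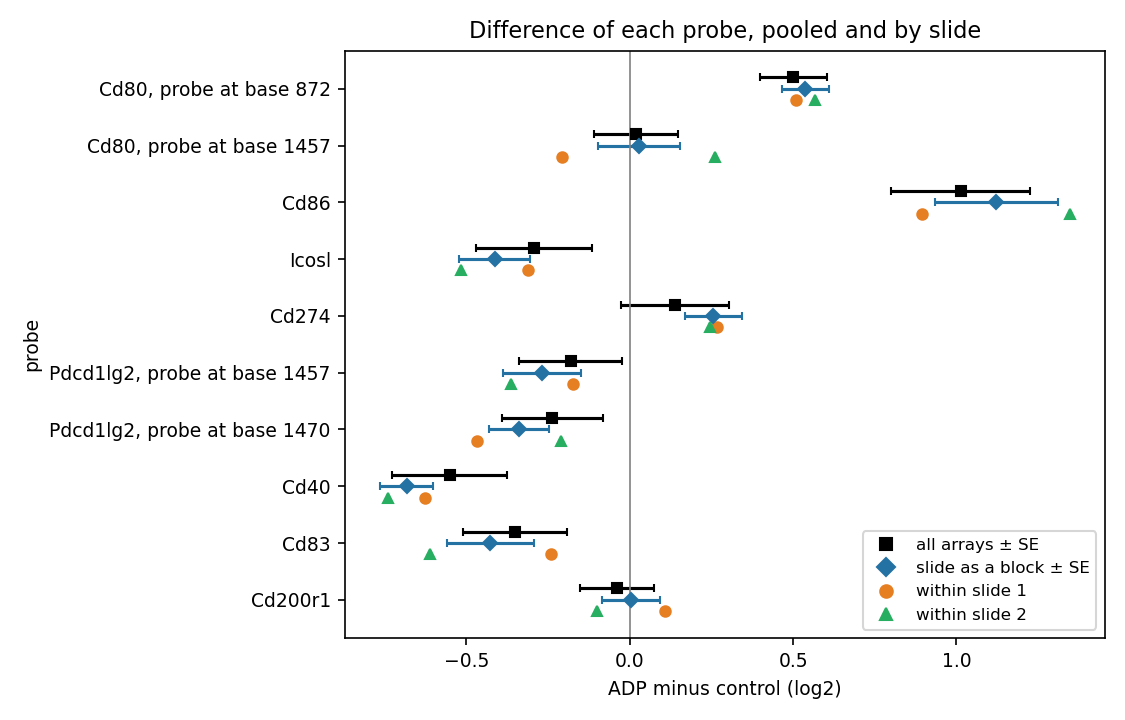
Difference of each probe, ADP minus control (log2). Squares use all arrays and diamonds use the slide as a block, each with its SE, while circles and triangles are the differences within slide 1 and slide 2. Cd86 lies at 1.01 and Cd40 at -0.55, and the Cd80 probes lie at 0.50 and 0.02.

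Over all arrays, 1 of the 8 genes was higher with ADP without overlap (Cd86), where 9.67% of all features were, and 1 was lower without overlap (Cd40), where 9.72% were. These shares are printed for scale and support nothing, since the genes were chosen on this contrast. The number of genes without overlap was 4 when control 2 was left out and also when ADP 2 was left out, with Icosl and Cd83 then below the controls. Leaving out an array can only keep or raise this number. The share of all features was not counted in those settings, so the rise supports nothing. Within slides, 6 of the 8 genes had all ADP arrays on the same side of the controls on both slides, against 43.6% of all features. Cd86 and Cd274 were the 2 higher ones (20.2% of all features), and Cd40, Cd83, Icosl and Pdcd1lg2 were the 4 lower ones (23.4% of all features). The median difference of the 8 genes was -0.11, beside 0.004 for all features, and with the slide as a block it was -0.13, beside -0.01. The 8 genes had no common direction.

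The model fitted across all features with limma called 0 of the 8 genes and 0% of all features at an adjusted p of 0.05, the smallest adjusted p being 0.26. At an unadjusted p under 0.05 were 12.7% of features. With the slide as a block it also called 0 of the 8 genes and 0% of all features. When trended and robust variances were added to the slide block, 1 of the 8 was past the threshold higher (Cd86, with 4.52% of all features) and 2 were past it lower (Cd40 and Icosl, with 5.38% of all features).

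The genes also differed in how they followed single arrays. Cd40, Cd83 and Icosl were each highest on control 3, at 0.58, 0.45 and 0.45 above their own mean over the 6 arrays. Cd86 was lowest on that array, at -0.88. Pearson's r of the level over the 6 arrays was 0.94 for Icosl with Cd83, 0.94 for Cd40 with Icosl and 0.91 for Cd40 with Cd83, while Cd86 gave -0.95 with Cd83 and -0.93 with Cd40. These 6 points share the slide and the treatment, so the values describe these arrays only. Cd40, Cd83 and Icosl stood 0.45, 0.41 and 0.46 higher in control 3 than in the controls of slide 1, and Cd86 stood lower by -0.55. Control 3 is the one control on slide 2, so that array and its slide cannot be told apart among the controls.

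**Figure D3:**
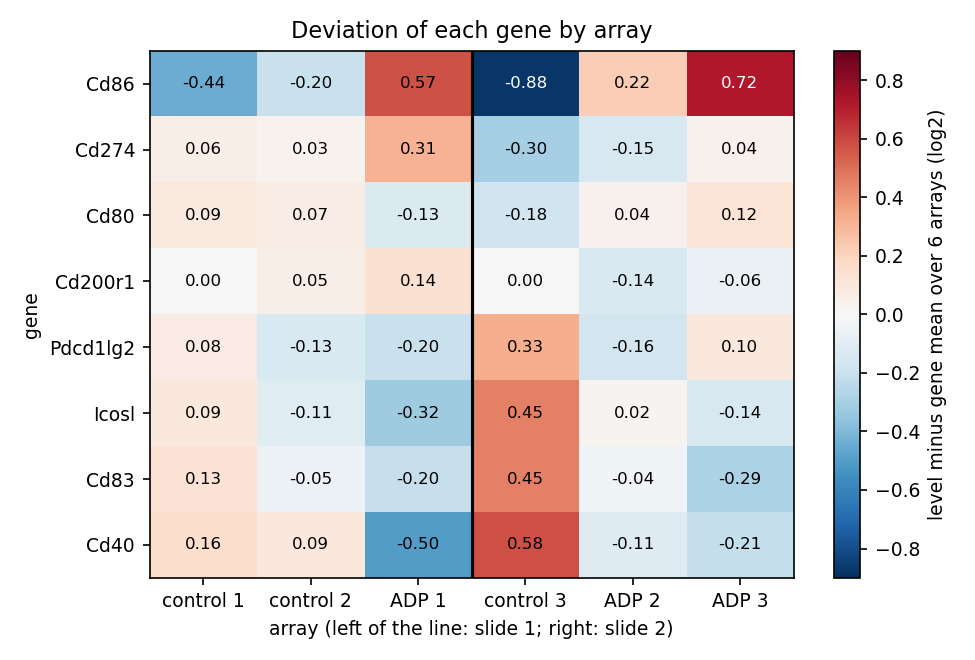
Level of each gene on each array minus the mean of that gene over the 6 arrays (log2), with the arrays of slide 1 left of the black line and those of slide 2 right of it. Cd86 is at -0.88 on control 3 and 0.72 on ADP 3, and Cd40 is at 0.58 on control 3 and -0.50 on ADP 1.

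The named genes whose levels followed Cd86 most closely over the 6 arrays were Cd14, Wdr92 and Cx3cl1, each at r of 0.998 or above. Cd14, the co-receptor for lipopolysaccharide, was higher with ADP by 0.79, Wdr92 by 0.98 and Cx3cl1, the chemokine fractalkine, by 0.62. Cd40 was followed most closely by Abi1, Camk1d and Frat2, at r of 0.998, 0.997 and 0.997, with differences of -0.33, -0.50 and -0.59. They are the closest of the 19575 features once clones, predicted genes and accessions are left out. With only 6 arrays, these names describe likeness and no more.

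The counter-receptors of the 8 molecules belong mainly to lymphocytes. Ctla4, Pdcd1 and Cd40lg were not well above background on any array. Cd28 was well above background on all arrays, with signals of 4463, 4553 and 5745 in the controls and 4812, 6117 and 7509 with ADP. These signals overlapped, but after scaling every ADP array was above every control, with a difference of 0.23 ± 0.13 (SE). Icos was dim, between 44.6 and 65.5, and overlapped between groups. Cd200, the ligand of CD200R1, had signals of 1036, 1130 and 1195 in the controls and 1344, 1304 and 1632 with ADP. Unscaled, its groups were apart, and after scaling they overlapped, with a difference of 0.27 ± 0.13 (SE).

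Around the 8 genes, 8 lists with 93 different genes were read from the same fit, and 76 of the genes were measured. None passed the limma threshold after Benjamini-Hochberg adjustment over all features. At an unadjusted limma p under 0.05 were 8 of the 76, beside 12.7% of all features. With the slide block and trended and robust variances, 11 of the 76 (14.5%) passed, 5 higher and 6 lower, beside 9.91% of all features. That fit was known from earlier work on these data to give more calls.

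Of 20 other checkpoint ligands and receptors, 16 were measured, 8 higher and 8 lower, with a median difference of 0.00 beside 0.004 for all features. With the slide as a block the median of the list was -0.12 beside -0.01, and within slide 2 it was -0.18 beside -0.03. Havcr2, which encodes the inhibitory receptor TIM-3, had signals of 1735, 2142 and 1315 in the controls and 3404, 3519 and 4751 with ADP. Every ADP array was above every control, as for Cd86. The difference was 1.10 ± 0.26 (SE; limma adjusted p = 0.261). On slide 1 it was 0.83 and on slide 2 it was 1.64. Sirpa, the inhibitory receptor for CD47, differed by -0.37 ± 0.14 (SE), and Pvr, a ligand of TIGIT and CD226, by 0.26 ± 0.16 (SE). Of the 7 TNF-family co-stimulatory ligands 4 were measured, 3 of them higher, with a median of 0.19. Tnfsf4, the OX40 ligand, had signals of 113, 146 and 95.5 in the controls and 259, 189 and 260.3 with ADP. The groups did not overlap, and the difference was 0.93 ± 0.27 (SE; limma adjusted p = 0.285). On slide 1 it was 1.03 and on slide 2 it was 1.22. The other named members of that list, Tnfsf15 and Tnfsf9 (the 4-1BB ligand), both differed by 0.19 ± 0.12 (SE).

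All 14 genes of CD40 signalling were measured, 10 higher and 4 lower, with a median of 0.15, where 50.8% of all features were higher. With the slide as a block 9 were higher and the median was 0.08, and within slide 1 it was 0.05. Traf1, an adaptor of TNF-family receptors, differed by 0.40 ± 0.13 (SE), and by 0.40 within each slide. Birc3, a ubiquitin ligase of the same receptor complexes, differed by 0.28 ± 0.12 (SE), and Jak3, a kinase, by -0.34 ± 0.16 (SE).

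Of 15 transcription factors listed for their known action on these genes, 12 were measured, 6 higher and 6 lower, with a median of -0.04, and 3 were higher and 9 lower with the slide as a block. Batf3, a factor of the AP-1 family, had signals of 612, 488 and 797 in the controls and 331, 468 and 329 with ADP. All ADP arrays were below all controls, and the difference was -0.82 ± 0.19 (SE; limma adjusted p = 0.261). On slide 1 it was -0.71 and on slide 2 it was -1.02. Irf1, an interferon-response factor known to drive Cd274, differed by -0.42 ± 0.16 (SE). Hif1a, the hypoxia factor, differed by 0.59 ± 0.22 (SE).

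Among 10 genes for turnover and trafficking of these ligands, 3 were higher and 7 lower, with a median of -0.07, and 5 were higher and 5 lower with the slide as a block. B4galt1, a galactosyltransferase, differed by -0.34 ± 0.11 (SE), Cmtm4, which protects PD-L1 from degradation, by 0.20 ± 0.12 (SE), and Adam17, a sheddase, by -0.17 ± 0.11 (SE). Of 6 genes in CD200 receptor signalling 5 were measured, all lower, with a median of -0.09. In the fit that blocks on slide, Nf1, which restrains Ras, was above 0 at 0.13 and the other 4 were below 0. Of 12 MHC class II genes, the antigen-presenting partner of co-stimulation, 9 were measured, 3 higher and 6 lower, with a median of -0.12. H2-Oa had the smallest unadjusted p there, with a difference of -0.35 ± 0.18 (SE). The counter-receptor list had 6 of 10 genes measured, 3 higher and 3 lower, and its median was 0.09 (0.02 in the fit that blocks on slide).

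**Figure D4:**
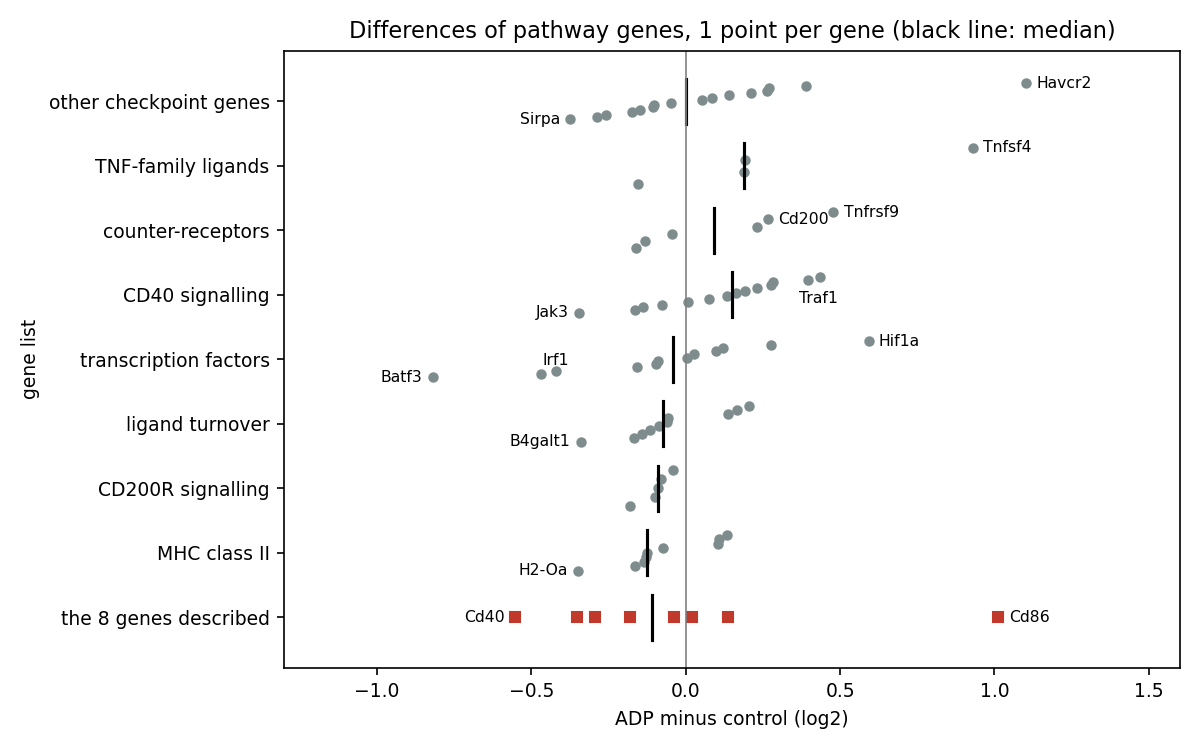
Difference of each measured gene of the 8 lists, ADP minus control (log2), 1 point per gene, with the median of each list as a black line and the 8 genes described as red squares. Havcr2 at 1.10 and Tnfsf4 at 0.93 lie beside Cd86 at 1.01, and Batf3 lies lowest at -0.82.

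Markers were read to check the labelled cell type, with each list summed as signal relative to the 75th percentile. All 10 macrophage markers were well above background on all arrays. Of the 9 T cell markers, 5 were well above background on all arrays (Cd3e, Cd247, Lck, Cd2 and Cd4) and Cd3d, Cd3g and Cd8a on none. All 5 of the former were higher with ADP over all arrays, Cd2 without overlap (by 0.75). Cd3e followed the slide, with signals of 227, 246 and 523 in the controls and 194, 472 and 559 with ADP. On slide 1 it was lower with ADP. The sums overlapped, at 2.94 to 4.45 in the controls and 3.29 to 4.98 with ADP. Of the 10 dendritic cell markers, 6 were well above background on all arrays and Xcr1 and Cd209a on none, and the sums overlapped, at 39.8 to 144 and 39.3 to 162. Of those 6, Ccr7 and Siglech were higher with ADP over all arrays, by 1.00 and 0.65, and Batf3, Fscn1, Flt3 and Itgax were lower, by -0.82, -0.19, -0.15 and -0.14. Siglech made up at least 91.9% of the sum and followed the slide. Its signals were 20327, 16959 and 76580 in the controls and 16591, 86399 and 84240 with ADP, high on slide 2 in both groups. The list had no common direction.

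Among the other lists, only the neutrophil and B cell sums were apart between the groups. Of the 8 neutrophil and precursor markers on the array, 6 were well above background on all arrays and all 6 were higher with ADP, while Ngp was well above background on none. The sum over all 8 was 40.7 to 42.1 in the controls and 45.5 to 51.7 with ADP, and S100a8 made up at least 47.5% of it. Of the 7 fibroblast and 5 endothelial markers, 5 and 3 were well above background on all arrays. All of these had differences above 0, but Col1a1 by only 0.001 and Col1a2 by 0.04. The sums overlapped (12.6 to 14.0 and 13.4 to 14.6 for fibroblasts, 4.11 to 5.41 and 4.72 to 6.84 for endothelium). Of the 5 NK cell markers only Prf1 was well above background on all arrays, and the sums overlapped, at 0.17 to 0.34 and 0.18 to 0.52. Of the 6 mast cell, basophil and eosinophil markers, Kit and Prg2 were well above background on all arrays, and both were lower with ADP, by -0.72 and -0.09. Those sums overlapped, at 0.36 to 0.43 and 0.23 to 0.39. Of the erythroid markers only Epor was, lower by -0.33, with sums of 0.17 to 0.25 and 0.16 to 0.21. The sum over the 6 B cell markers was 5.46 to 7.94 in the controls and 4.77 to 5.21 with ADP. Of them only Cd79b was well above background on all arrays, it made up at least 97.6% of the sum, and Cd79a, well above background on all but 1 control array, was higher with ADP by 0.40. The part of these markers in the differences of Cd86, Cd40 and the other genes was not tested.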

How the data were processed

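Total RNA of 3 control and 3 ADP-treated macrophage samples was labelled with Cy3 and hybridised to one-colour Agilent mouse arrays, 1 per sample. Spot intensities were extracted by the authors with Agilent Feature Extraction 10.7.1.1, per the submitters' processing notes, and the deposited processed intensity is corrected for background within the array and not scaled between arrays, per the file headers. A deposited value table holds the same intensity on a linear scale, within 0.001 log2 for at least 99.69% of probes on each array. Its column medians were 18.5, 20.2 and 21.8 in the controls and 20.6, 21.7 and 22.5 in the ADP samples.

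Here, control spots were left out, outlier spots were dropped unless all spots of a probe were outliers, and spots of a probe were averaged. Each array's 75th percentile over the non-control spots was subtracted from its log2 signals. A probe was kept if all 3 arrays of either group were well above background (26587 probes), and the probe with the highest mean represented its gene. Names were updated through a RefSeq table of assembly GRCm38.p6, in which 26582 probes matched by accession. Probe coordinates are those in the files, on mm9.

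The comparison used lmFit and eBayes of limma 3.58.1 under R 4.3.3, two-sided, with Benjamini-Hochberg adjustment over 19575 features and a threshold of 0.05. The script was tested on simulated data. The single-probe values come from the same fit on every kept probe. The 8 genes, the lists and the alternatives were chosen with earlier results of these data known. Named genes were the 8 with each of their probes, up to 3 genes per list with the smallest unadjusted p, and counter-receptors. By the same rule, the 3 genes most correlated with the highest and with the lowest of the 8 were named, leaving out clones, predicted genes and accessions. Nf1 and single marker genes lie outside that rule and were named after their values were seen. Alternatives were normexp with an offset of 50, quantile or median scaling, the unscaled value table, no filter, a filter requiring all 6 arrays, each probe or the mean of probes, trended and robust variances, a block on slide or replicate number, and each array left out in turn.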

Additional observations from a re-analysis of the deposited data

How the results depend on the processing

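Of 152 alternative values for the 8 genes, 146 moved by less than 1 SD of the arrays and 9 changed sign, all of them for Cd80 or Cd200r1. Over all alternatives, the difference ranged from 0.83 to 1.35 for Cd86, -0.74 to -0.40 for Cd40, -0.61 to -0.21 for Cd83, -0.52 to -0.14 for Icosl, -0.36 to -0.06 for Pdcd1lg2, 0.02 to 0.27 for Cd274, -0.21 to 0.26 for Cd80 and -0.12 to 0.11 for Cd200r1. The groups stayed apart for Cd86 with normexp, quantile and median scaling and in the unscaled value table. For Cd40 they stayed apart in all of these except the unscaled value table. The other alternatives could not make these groups overlap, since they use the same levels or only leave out an array.

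The number of the 8 genes without overlap was 2 to 4 when each array was left out in turn, which can only keep or raise it. It was 3 with quantile scaling and 3 with the mean of probes. The share of all features was not counted in these settings. The number of features called by limma was 0 in every alternative, including each left-out array, where list genes were also 0, with one exception. At an unadjusted p under 0.05 were 2492 features with all arrays, 1163 without ADP 3, 1381 without control 1, 1554 in the unscaled value table and 4759 with the slide block. The slide block with trended and robust variances called 1939 features and 11 list genes. The cause was not tested.

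Arrays with the same replicate number deviated together for numbers 1 and 3 (r of 0.42 and 0.43) and apart for number 2 (r of -0.40). The arrays of numbers 1 and 3 share a slide, and those of number 2 do not. Every control and ADP array on the same slide deviated together (r of 0.42 to 0.47), and every pair across slides deviated apart (r of -0.60 to -0.27). Deviations were taken from the mean of each group and sum to 0 within it. Positive values for some pairs therefore force negative values for others. Control 2 followed ADP 1 best, so the numbers were not taken as pairs. The replicate block called 0 features and 0 list genes. Overlap of the groups is read from the levels, so a block cannot change it.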
